A study of Mus musculus with 4 samples.

Results

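Polyamine metabolism in mouse leukemia cells was described from 10 genes of synthesis, feedback control and breakdown, taken by gene symbol from 55339 rows of 1 expression table. The members are Odc1, Amd1, Srm, Sms, Oaz1, Oaz2, Azin1, Sat1, Smox and Paox, and all 10 had a row. They were chosen by function with the log2 values of knockout and WT libraries already known, those of Srm above all, so the difference between the groups is given for them as a description, with no test.

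The cells were leukemia cells from the bone marrow of C57BL/6 mice. The knockout group holds 2 libraries of genotype YBX1-/-, written as cKO in their titles (replicates 1 and 3), and the WT group holds 2 libraries (replicates 4 and 5). YBX1 is an mRNA-binding protein of the cold-shock family, and the series title ties it to mRNA stability, to the m6A methyl mark on mRNA and to the survival of myeloid leukemia cells. The oncogene that drove the leukemia, the means of deleting Ybx1, the cell purification and the age of the mice are not given in the sources used here. Nothing in the labels says that the libraries came from separate animals, so the spread between them may be technical.

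Polyamines (putrescine, spermidine and spermine) are small positively charged molecules that bind RNA and DNA and are needed by growing cells. Ornithine decarboxylase, encoded by Odc1, makes putrescine. The decarboxylase encoded by Amd1 prepares the aminopropyl donor, and the synthases encoded by Srm and Sms use it to make spermidine and then spermine. Antizymes, encoded by Oaz1 and Oaz2, bind ornithine decarboxylase and send it to the proteasome, and the Azin1 product is an inactive relative of the decarboxylase that captures antizyme. SAT1 acetylates polyamines for export or for oxidation by PAOX, and SMOX oxidises spermine directly. Srm and Odc1 are known targets of MYC.

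Antizyme mRNAs carry their own polyamine sensor. A ribosome must skip 1 base at a stop codon to make the full protein, and polyamines favour the skip. The bases around this site are shown because Oaz1 and Oaz2, which share it, had unlike values in these libraries. The sequences come from the GENCODE transcripts on build GRCm38 and run 5′ to 3′. Capitals mark the last codon before the shift followed by the stop codon in the transcribed sequences, and the same stretch with 1 base left out in the coding models.
Oaz1, chr10:80828282-80828311, plus strand: tcggtggtgcTCCTGAtgtccctcacccac
Oaz2, chr9:65686259-65686288, plus strand: tctgtggtgcTCCTGAtgcccctcacccac
Oaz1-ps, chr17:17345920-17345949, minus strand: tcggtggtgcTCCTGAtgtccctcacccac
Oaz1 coding model: tcggtggtgcTCCGAtgtccctcacccac
Oaz2 coding model: tctgtggtgcTCCGAtgcccctcacccac

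Over these 30 bases Oaz1 and Oaz2 differed at 2 positions, G3T and T19C, with Oaz1 given first and positions counted from the first base shown. The processed pseudogene Oaz1-ps differed from Oaz1 at 0 of the 30 bases. Of the 50-base windows along Oaz1-ps, 92.1% were also found in Oaz1 transcripts. None of the 1794 windows of that length in Oaz2 was found in Oaz1.

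The table gives normalized log2 values and no counts, and the depth of each library is therefore unknown. Ybx1 itself had log2 values of 7.29 and 8.33 in knockout cells, against 19.70 in WT replicate 4 and 10.002 in WT replicate 5. WT replicate 4 stood apart from the rest over the 17303 genes tested, with Pearson's r of 0.69 to 0.71 to each other library against 0.93 to 0.96 among the other 3, given as a description across genes. Of the tested genes, 8.98% lay over 3 log2 above all other libraries in WT replicate 4 and 22.6% lay over 1 log2 below all of them. Without counts it cannot be told whether the values of WT replicate 4 are measured levels, and every difference from both WT libraries includes them. All 8 myeloid markers reached log2 5 in at least 1 library, and T cell, erythroid and stromal or endothelial markers did not reach it in any. In the B cell list only Cd79b did, and in the megakaryocyte list only Itga2b. The summed level of the 5 B cell markers was 7.25 to 7.42 log2 in knockout cells, against 5.76 to 7.02 in WT cells, and its part in the results was not tested. Limma's moderated test called 0 of 17303 genes (0%) between knockout and WT at a Benjamini-Hochberg adjusted p under 0.05, and 651 genes had an unadjusted p under 0.05. The deleted gene Ybx1 was among those not called, with a difference of -7.04 log2 (limma SE 3.49). A lack of calls in these libraries therefore does not show that a gene is unchanged. Leaving out WT replicate 5 gave 4960 calls and leaving out knockout replicate 1 or 3 gave 26 or 88. In these fits 1 group holds a single library, which is assumed to vary like the pair of the other group, so the counts show only that the number of calls rests on single libraries. Each member is set both against both WT libraries and against WT replicate 5 alone.

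**Figure D1:**
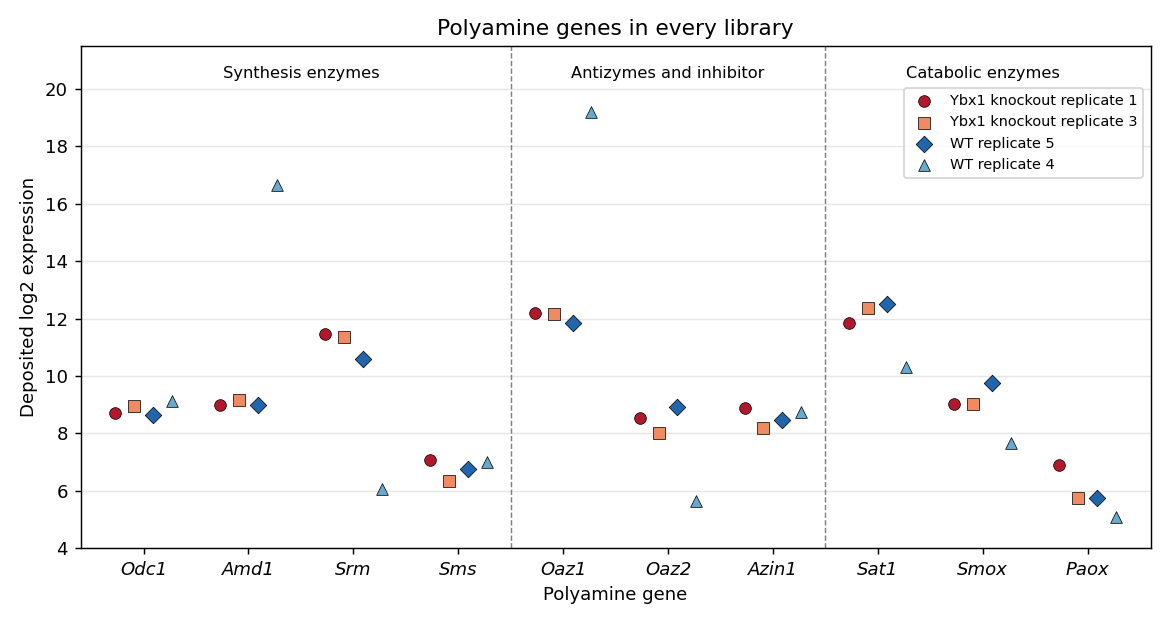
Deposited log2 expression (vertical axis) of the 10 polyamine genes (horizontal axis) in each library: knockout replicates 1 and 3 left of WT replicates 5 and 4, 1 symbol per library. WT replicate 4 lies far above the other libraries in Amd1 (16.65) and Oaz1 (19.19). It lies over 1 log2 below all of them in Srm (6.08), Oaz2 (5.65), Sat1 (10.33) and Smox (7.67).

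Srm, the spermidine synthase gene, was higher in each knockout library than in either WT library, and it was the 1 member of 10 for which the groups did not overlap. Across all tested genes, 17.3% had both knockout values above both WT values and 18.8% had them below, while 1 and 0 of the 10 members did. Against WT replicate 5 alone, Srm, Oaz1, Amd1 and Odc1 were higher in both knockout libraries, and Smox, Oaz2 and Sat1 were lower in both. That is 4 of 10 above, beside 41.8% of all tested genes, and 3 of 10 below, beside 33.4%. The other 3, Sms, Azin1 and Paox, had a knockout value on each side, beside 24.7% of all tested genes. The counts of the members were thus near those of all genes, and nothing is read from them. In bulk RNA, fewer cells of a kind and less RNA per cell cannot be told apart.

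Among the synthesis enzymes, Srm (GRCm38 chromosome 4, 148591503 to 148594993, plus strand) reached 11.46 and 11.35 in knockout cells, against 6.08 in WT replicate 4 and 10.60 in WT replicate 5. The knockout libraries were close to each other and both above WT, while the WT libraries were far apart. The knockout mean was 11.40 ± 0.08 and the WT mean 8.34 ± 3.19 log2 (SD, n = 2 each), a difference of 3.06 (limma SE 1.74) that rests on WT replicate 4. Against WT replicate 5 the difference was 0.81 log2, a 1.75-fold higher level, and it was larger than the 0.11 log2 between the knockout libraries. Of all tested genes, 11.2% had both knockout libraries at least as far above WT replicate 5 as Srm did. Among the 4062 tested genes with a median log2 value of at least 8, the share was 4.95%. A gap above both WT libraries as wide as that of Srm was found in 3.12% of all tested genes.

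Odc1 (chromosome 12, 17544794 to 17551505, plus strand), whose product is the rate-limiting and fast-decaying enzyme of the pathway, was at 8.70 and 8.97 in knockout cells, against 9.12 and 8.64 in WT replicates 4 and 5. Both knockout values lay between the WT values. The difference was -0.04 log2 against both WT libraries and 0.20 against WT replicate 5, less than the 0.27 between the knockout libraries. With Sms and Azin1, Odc1 was a member for which WT replicate 4 lay within 0.5 log2 of WT replicate 5.

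Amd1 (chromosome 10, 40287458 to 40302186, minus strand), which encodes S-adenosylmethionine decarboxylase, was at 8.996 and 9.18 in knockout cells, against 16.65 and 8.98 in WT replicates 4 and 5. WT replicate 4 alone stood high, and the other 3 libraries lay within 0.20 log2. The difference of -3.73 log2 against both WT libraries came with an SE of 2.80, and without WT replicate 4 it was 0.11. Its near copy Amd2, on the same chromosome, shares 85.7% of its 50-base windows with Amd1 transcripts, so reads of the pair could be split or lost in counting. How shared reads were counted is not given in the sources used here. Amd2 was at 4.36 and 4.69 in knockout cells, against 8.81 and 1.43 in WT replicates 4 and 5, so its knockout values lay between the WT values too.

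Sms (chromosome X, 157443855 to 157492287, minus strand), the spermine synthase gene, was at 7.09 and 6.35 in knockout cells, against 7.01 and 6.75 in WT replicates 4 and 5. The knockout values lay on both sides of both WT values, with 0.73 log2 between them. A spermine synthase pseudogene, Sms-ps, has 100% of its 50-base windows in Sms, and was listed at -1.47 and -1.52 in knockout libraries, against -1.39 and -1.52 in WT replicates 4 and 5. For Srm and Sms, which act one after the other, the log2 ratio (Srm minus Sms) was 4.37 and 4.999 in knockout libraries. In WT replicates 4 and 5 the ratio was -0.93 and 3.85, below both knockout values. Srm alone already separates the groups, so nothing further is read from this ratio.

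**Figure D2:**
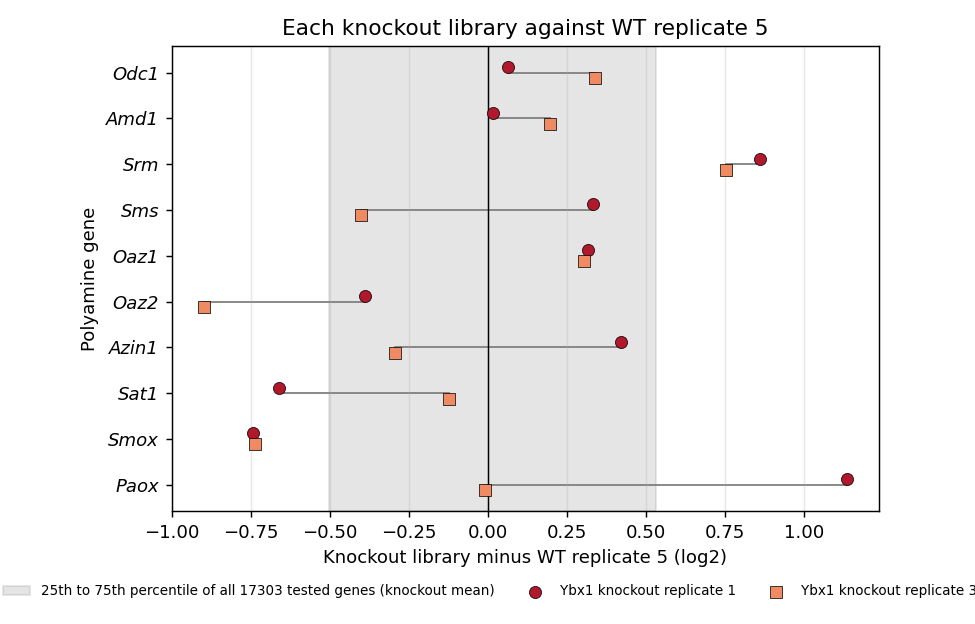
Difference of each knockout library from WT replicate 5 (horizontal axis, log2) for the 10 polyamine genes (vertical axis). Circles are knockout replicate 1 and squares replicate 3, joined by a line, and the grey band spans the 25th to 75th percentile of all 17303 tested genes, from -0.50 to 0.53 for the knockout mean. Srm lies right of the band and Smox left of it in both knockout libraries.

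Against WT replicate 5, the antizyme gene Oaz1 was higher in both knockout libraries and Oaz2 lower. Oaz1 (chromosome 10, 80826656 to 80829290, plus strand), the main antizyme gene, was at 12.18 and 12.17 in knockout cells, against 19.19 and 11.86 in WT replicates 4 and 5. The knockout libraries differed by 0.01 log2 and lay 0.31 above WT replicate 5, far below WT replicate 4. Oaz1-ps, which shares the sequence shown above, was at 4.21 and 4.18 in knockout cells, against 10.35 and 3.71 in WT replicates 4 and 5. Its order over the libraries was that of Oaz1, and with 92.1% of windows shared its values cannot be taken as a separate measurement.

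Oaz2 (chromosome 9, 65668001 to 65690300, plus strand) was at 8.53 and 8.02 in knockout cells, against 5.65 and 8.92 in WT replicates 4 and 5. Both knockout values lay between the WT values. They were 0.39 and 0.90 log2 below WT replicate 5, a mean difference of -0.64, or a 1.56-fold lower level, with 0.51 between the knockout libraries. The log2 ratio of the antizymes (Oaz1 minus Oaz2) was 3.65 and 4.14 in knockout libraries, against 13.54 and 2.94 in WT replicates 4 and 5. In this ratio knockout was higher than WT replicate 5 and lower than WT replicate 4.

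Azin1 (chromosome 15, 38487427 to 38519266, minus strand), the antizyme inhibitor gene, was at 8.90 and 8.18 in knockout cells, against 8.76 and 8.48 in WT replicates 4 and 5. The knockout values lay on both sides of the WT values. The ratio of the decarboxylase to the inhibitor (Odc1 minus Azin1) was -0.20 and 0.79 log2 in knockout libraries, against 0.36 and 0.16 in WT replicates 4 and 5, so the groups overlapped. The ratio of the decarboxylase to the main antizyme (Odc1 minus Oaz1) was -3.48 and -3.19 in knockout libraries, against -10.06 and -3.23 in WT replicates 4 and 5. Apart from WT replicate 4, this balance differed by less than 0.3 log2 among libraries.

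None of the 3 catabolic genes, Smox, Sat1 and Paox, separated the groups. Smox (chromosome 2, 131491496 to 131525922, plus strand), the spermine oxidase gene, was at 9.02 in both knockout libraries, against 7.67 and 9.76 in WT replicates 4 and 5. The knockout libraries differed by 0.01 log2 and lay between the WT libraries. They were 0.74 log2 below WT replicate 5, a 1.67-fold lower level, and above WT replicate 4. Of all tested genes, 11.7% had both knockout libraries at least as far below WT replicate 5 as Smox, and among genes with a median of at least 8 log2 the share was 5.02%.

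Sat1 (chromosome X, 155213132 to 155216449, minus strand), which encodes spermidine/spermine acetyltransferase, was at 11.84 and 12.38 in knockout cells, against 10.33 and 12.50 in WT replicates 4 and 5. Again both knockout values lay between the WT values. The mean was 0.39 log2 below WT replicate 5, less than the 0.54 between the knockout libraries.

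Paox (chromosome 7, 140115799 to 140137224, plus strand), the acetylpolyamine oxidase gene, was at 6.89 and 5.75 in knockout cells, against 5.08 and 5.76 in WT replicates 4 and 5. Knockout replicate 1 lay above both WT libraries and knockout replicate 3 was level with WT replicate 5. Its gap between the knockout libraries, 1.14 log2, was the widest of the 10 members. Exons of Paox overlap Echs1 on the other strand, and whether counting used the strand is not given in the sources used here. Echs1 was at 8.75 and 8.67 in knockout libraries, against 7.38 and 8.09 in WT replicates 4 and 5, so reads of the pair may not be separable.

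Ratios within a library are given for Srm and the catabolic genes as a description of these libraries. The log2 ratio Srm minus Smox, in which gene length cancels between libraries, was 2.44 and 2.33 in knockout libraries, against -1.59 and 0.84 in WT replicates 4 and 5. Both knockout values were above both WT values, and the mean lay 1.55 log2 above WT replicate 5. For Srm minus Sat1 the values were -0.38 and -1.03 in knockout libraries, against -4.25 and -1.90 in WT replicates 4 and 5, again without overlap. These pairs were picked after the values had been seen. Srm alone already separates the groups, and how many other gene pairs do so was not counted.

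Taken by role, the synthesis genes numbered 3 of 4 with each knockout value higher than WT replicate 5 and 0 with each lower, and their median difference was 0.15 log2. For the antizymes and their inhibitor the count was 1 of 3 above and 1 below, and the median was 0.06. Of the 3 catabolic genes, 0 were above it and 2 below, and the median was -0.39. Over all tested genes 41.8% were above and 33.4% below, and with 3 or 4 genes to a role nothing is read from these counts. Over the 10 members the median was 0.08 and over all tested genes 0.07. Against both WT libraries the medians were 0.13 for the members and -0.09 for all tested genes.

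**Figure D3:**
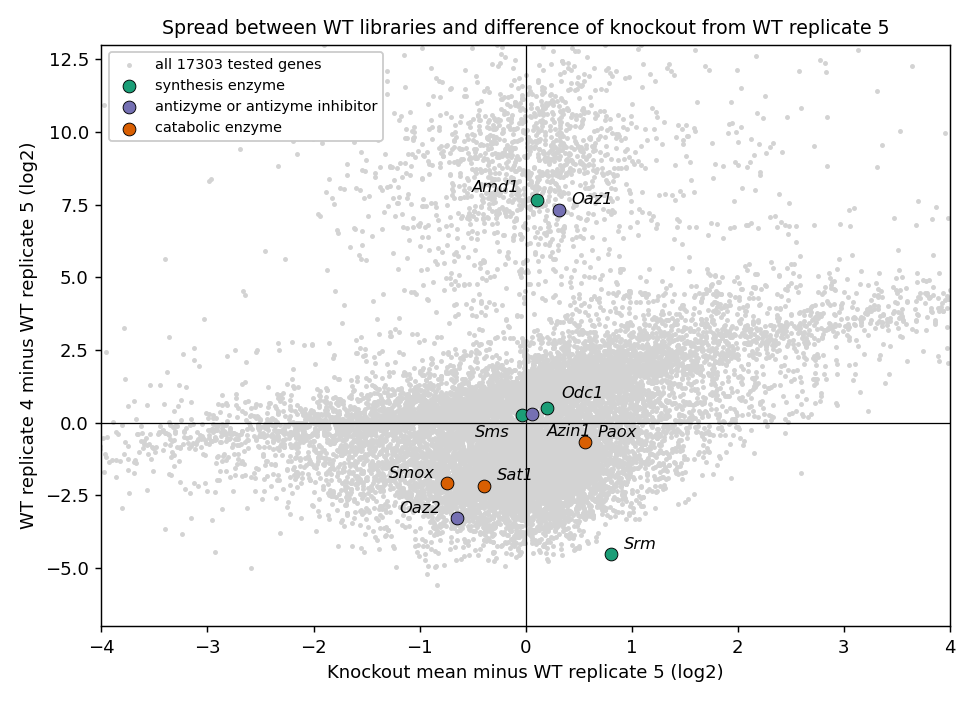
WT replicate 4 minus WT replicate 5 (vertical axis, log2) against knockout mean minus WT replicate 5 (horizontal axis, log2). Grey points are all tested genes, of which 291 lie outside the frame, and coloured points are the 10 polyamine genes by role. The members span -4.52 to 7.67 log2 on the vertical axis and -0.74 to 0.81 on the horizontal one.

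The spread between the WT libraries was wider than that between the knockout libraries for 7 of the 10 members. Its median was 2.13 log2, against 0.39 for the knockout pair, whose median over all tested genes was 0.46. WT replicate 4 was over 3 log2 above all other libraries in 2 members, Amd1 and Oaz1, beside 8.98% of all tested genes. It was over 1 log2 below all of them in 4, Srm, Oaz2, Sat1 and Smox, beside 22.6%. The sign of the difference from WT turned for 7 of 10 members when WT replicate 4 was left out, and stayed positive for Srm, at 0.81, and Paox, at 0.56, and negative for Sms, at -0.03. The shares of all tested genes with a wider WT spread or a turned sign were not counted. Neither count is therefore read as particular to the members. The titles of knockout replicate 1 and both WT libraries carry the number 1 and that of knockout replicate 3 the number 2. Within number 1, knockout replicate 1 lay 1.13 log2 above WT replicate 5 in Paox and 0.86 above it in Srm. It lay 0.74 below WT replicate 5 in Smox, 0.66 below in Sat1 and 0.39 below in Oaz2. In the other members it lay 0.01 to 0.42 log2 above WT replicate 5.

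The authors' deposited table gives fold changes for all 10 members and calls 0 of them at an adjusted p under 0.05, where it calls 0.131% of its 20610 rows with a fold change higher and 3.83% lower in knockout. Among the members, the lowest adjusted p in the authors' deposited table was 0.0577, for Oaz1, and the next was 0.237, for Srm. The test behind these p-values is not given in the sources used here. Against WT replicate 5 alone, Oaz1 was 0.31 log2 higher in knockout. In the authors' deposited table, read as knockout over WT, the log2 fold change was 2.40 for Srm, 1.61 for Paox, -6.50 for Amd1, -5.76 for Oaz1 and -1.56 for Sat1. The median over all 20610 rows with a fold change in the authors' deposited table was -1.46, so Sat1 lay near the middle of that table. The other 5 members lie between -0.44 and 0.47 in the authors' deposited table, above that median. The signs compared next are taken about 0 and not about that median. For 5 of the 10 members the sign in the authors' deposited table was that of the difference between the group means here, and for 6 that of the difference from WT replicate 5. Over 17185 tested genes with a fold change in the authors' deposited table, these shares were 84.3% and 58.5%. For Amd1 the authors' deposited table lists a p-value of exactly 1 beside its fold change, as it does in 1565 rows.

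Of 46 genes around the pathway, listed by function, 36 were tested and limma called 0 of them at an adjusted p under 0.05. The lowest limma adjusted p of any tested gene was 0.826, and genes of unlike unadjusted p share it. Where it is given below, it does not rank the genes. An unadjusted limma p under 0.05 was found for 2 of the 36, Slc25a2 and Sat2, beside 651 of all 17303 tested genes. In 5 of the 36 both knockout values lay above both WT values and in 5 below, neither more often than over all tested genes (17.3% and 18.8%). With 3 to 13 tested genes to a list, nothing is read from the counts of single lists. Their median difference was 0.03 log2 from WT, -0.16 from WT replicate 5 and 0.46 from WT replicate 4. Of 37 pathway genes with a fold change in the authors' deposited table, it called 2 lower, Slc3a2 and Eif5a, and 0 higher. Over all its rows with a fold change, 3.83% were called lower and 0.131% higher. Against WT replicate 5 alone, the knockout mean was 0.48 log2 lower for Slc3a2 and 0.13 higher for Eif5a.

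**Figure D4:**
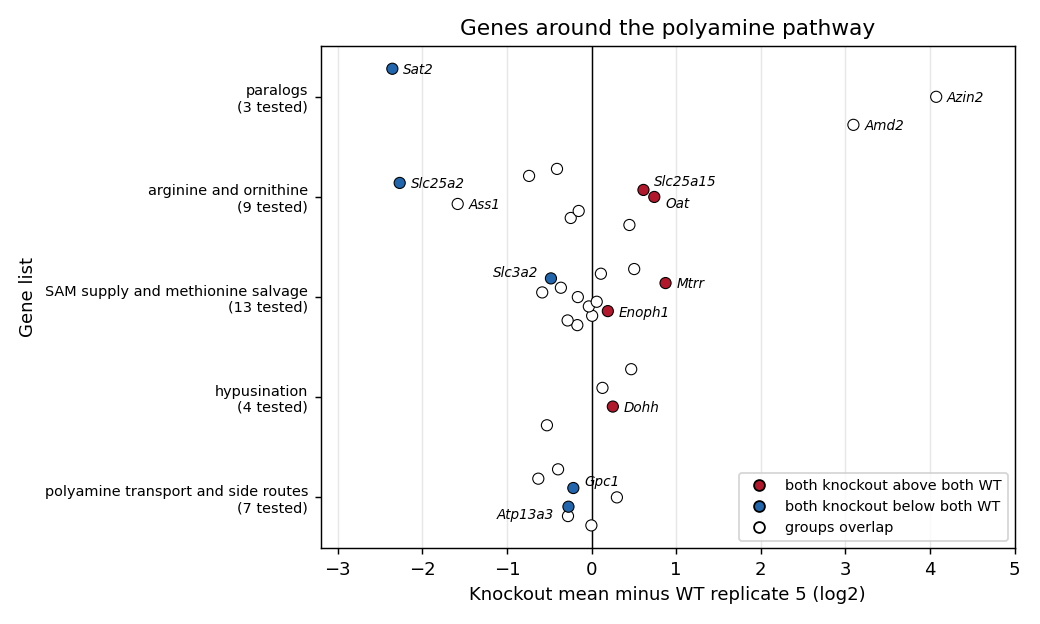
Knockout mean minus WT replicate 5 (horizontal axis, log2) for 36 tested genes around the polyamine pathway, in 5 lists (vertical axis). Filled points are genes whose knockout values lie above (red) or below (blue) both WT values, and open points are genes whose groups overlap. Oat, Mtrr, Slc25a15, Enoph1 and Dohh are the red points.

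Ornithine, the substrate of ornithine decarboxylase, is made from arginine by arginases and used up by ornithine aminotransferase, encoded by Oat. Of 9 tested genes of arginine and ornithine handling, 2 lay above both WT libraries and 1 below, beside 17.3% and 18.8% of all tested genes. Oat was at 9.52 and 9.62 in knockout cells, against 5.92 and 8.83 in WT replicates 4 and 5. Both knockout values were higher than both WT values, with a limma difference of 2.19 (SE 1.18, adjusted p = 0.826) that did not pass. The authors' deposited table lists Oat with a log2 fold change of -4.67, which has the other sign. The mitochondrial ornithine carrier gene Slc25a15 was at 4.95 and 5.87 in knockout cells, against 4.65 and 4.79 in WT replicates 4 and 5, and did not pass by limma (adjusted p = 0.829). Its relative Slc25a2 was near the low end of the table, at -0.46 and -0.48 in knockout cells, against 1.70 and 1.80 in WT replicates 4 and 5 (limma adjusted p = 0.826). Arg2, a mitochondrial arginase gene, was at 7.89 and 8.66 in knockout cells, against 7.52 and 8.52 in WT replicates 4 and 5, so the groups overlapped.

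S-adenosylmethionine feeds the AMD1 step, and the by-product methylthioadenosine is salvaged back to methionine. Of 13 tested genes of this supply and salvage, 2 lay above both WT libraries and 1 below, beside 17.3% and 18.8% of all tested genes, and the median difference from WT replicate 5 was -0.03 log2. The methionine synthase reductase gene Mtrr was at 7.35 and 7.82 in knockout cells, against 5.24 and 6.71 in WT replicates 4 and 5 (limma adjusted p = 0.826). The salvage gene Enoph1 was at 7.45 and 7.57 in knockout cells, against 5.37 and 7.31 in WT replicates 4 and 5 (limma adjusted p = 0.826). In WT replicate 4, 9 of the 13 genes lay under log2 6, beside 12705 of all 17303 tested genes. Slc3a2, the heavy chain of amino acid transporters, was at 11.88 and 11.49 in knockout cells, against 21.48 and 12.16 in WT replicates 4 and 5 (limma adjusted p = 0.830). Mat2a, which encodes the enzyme that makes S-adenosylmethionine, was at 10.79 and 10.54 in knockout cells, against 9.93 and 10.70 in WT replicates 4 and 5, so the groups overlapped.

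Spermidine is also the donor for hypusine, a modified lysine of the translation factor eIF5A that the enzymes encoded by Dhps and Dohh build. Dohh was at 8.001 and 7.95 in knockout cells, against 5.46 and 7.72 in WT replicates 4 and 5, with the groups apart and a limma adjusted p of 0.826. Dhps was at 6.62 and 7.23 in knockout cells, against 5.32 and 7.45 in WT replicates 4 and 5. Eif5a was at 15.01 and 15.13 in knockout cells, against 22.23 and 14.94 in WT replicates 4 and 5. Both Dhps and Eif5a had knockout values between the WT values.

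Of 7 tested genes of polyamine transport and side routes, 0 lay above both WT libraries and 2 below, beside 17.3% and 18.8% of all tested genes. Atp13a3, whose product carries polyamines into human cells, was at 6.43 and 6.04 in knockout cells, against 7.03 and 6.51 in WT replicates 4 and 5 (limma adjusted p = 0.844). Gpc1, which encodes a heparan sulfate proteoglycan, was at 8.18 and 8.02 in knockout cells, against 18.41 and 8.31 in WT replicates 4 and 5 (limma adjusted p = 0.826). The gap below WT was 0.08 log2 for Atp13a3 and 0.14 for Gpc1. Of the 5 paralogs of members, 3 were tested. Sat2 had the groups apart, at 0.18 and 1.45 in knockout cells, against 3.67 and 3.17 in WT replicates 4 and 5 (limma adjusted p = 0.826). Like Slc25a2, Sat2 was low in the table. The antizyme inhibitor paralog Azin2 was at 4.19 and 3.30 in knockout cells, against 3.55 and -0.33 in WT replicates 4 and 5, and its groups overlapped.

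The genes whose values over the 4 libraries were most like those of Srm, by Euclidean distance after centring each gene on its mean, were Rbbp7, Psmd4 and Rsl1d1, out of 13106 genes searched. Their distances were 0.44, 0.45 and 0.48 log2. They lay 0.45, 0.34 and 0.66 log2 above WT replicate 5, all less than the 0.81 of Srm, and at 6.05, 6.36 and 5.99 in WT replicate 4. Srm was at 6.08 in WT replicate 4, far below its other values, so that library weighs most in these distances. In WT replicate 4, 12705 of all 17303 tested genes lay under log2 6.

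The letters GGACT, a common core of the m6A consensus, were searched on the transcript strand of 1 principal GENCODE transcript per gene. They occurred in 8 of the 10 members, where 91.2% of 12793 tested genes with such a transcript hold at least 1 match. Oaz2 had 5 matches in 1843 bases, Amd1 had 7 in 3204, Paox had 9 in 4655 and Srm had 2 in 1338. Their 2.71, 2.18, 1.93 and 1.49 per kb were above the median of 1.06 per kb over all these genes. Oaz1, Sat1, Azin1 and Sms, at 0.96, 0.86, 0.62 and 0.27 per kb, were below it. Odc1 and Smox had 0. A match does not show that the base is methylated.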

How the data were processed

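Polyadenylated RNA was sequenced from 2 knockout and 2 WT libraries. Build GRCm38 and the tools HISAT2 2.1.0, CASAVA, DESeq2 and featureCounts are listed, without their roles, in the submitters' processing notes. The authors deposited 1 table of log2 expression values per gene. Their normalization is not given in the sources used here. For each gene the authors also deposited a fold change on the log2 scale, with its p-value before and after adjustment. Depth is unknown, and the number of libraries limits the precision. No column held values of other samples.

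Genes with a log2 value of at least 0 in at least 2 libraries, and other than 0, were tested (17303, all 10 members among them) with limma 3.58.1 in R 4.3.3, with a mean-variance trend and Benjamini-Hochberg adjustment. The step was tested on simulated data, and no result of that is given here. Nothing about these libraries, or about the wide spread of the WT pair, is read from it. Differences are knockout minus WT. Alternatives were pseudocounts of 0.1, 0.5 and 1, no filter or a filter of log2 5, quantile normalization, median centring, no trend and leaving out each library. Counts of genes on 1 side of WT replicate 5 were added after the values were seen. Members and lists were chosen with earlier results of these data known. Named pathway genes were, from each list, up to 3 with the widest gap between the groups, and Arg2, Mat2a, Dhps, Eif5a, Azin2 and Amd2 were added after their values were seen. Positions are from GENCODE on GRCm38. Sequences were read from GENCODE transcripts, and read sharing was described as the share of a transcript's 50-base windows found in another gene.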

Additional observations from a re-analysis of the deposited data

How the results depend on the processing

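No paired analysis was possible because the groups share no replicate number. Limma called 0 genes under every setting with all 4 libraries and without WT replicate 4, and 0 to 4960 when 1 library was left out. The members' median difference from WT, 0.13 log2, ranged over 0.085 to 0.51 when 1 library was left out, was -0.081 after quantile normalization and was -0.0054 after median centring. From WT replicate 5 alone it was 0.085, 0.16 after median centring and -0.066 to 0.19 with 1 knockout library. The pathway genes' median from WT, 0.03, ranged over -0.16 to 0.46 when 1 library was left out and was 0.31 with the filter of log2 5, 0.072 after quantile normalization and -0.11 after median centring. Their median from WT replicate 5, -0.16, was -0.081 after median centring and -0.075 to -0.023 with 1 knockout library. Median centring shifted the all-gene median difference from WT by -0.14, quantile normalization by 0.26 and the filter of log2 5 by 0.69. Without WT replicate 4, an alternative chosen after seeing the data, members on 1 side of WT numbered 4 above and 3 below in place of 1 and 0, and pathway genes 11 above and 15 below in place of 5 and 5. Of the members, 8 changed sign under at least 1 of 11 alternatives, and Srm (0.81 to 5.32) and Paox (0.33 to 1.47) kept a positive sign under all 11. The cause of these changes was not tested. With depth unknown, no detection limit was set.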
